A study of Mus musculus with 2 samples.

Results

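The 8 integrin beta subunits of the mouse were followed in NIH3T3 cells, fibroblasts of embryonic origin kept as an established line, with and without plasmid-borne MARVELD1. MARVELD1 is a membrane protein named for its MARVEL domain. The genes Itgb1 to Itgb8 are 8 of 19730 named genes, and every probe carrying one of these gene names was taken, 17 of 41174 distinct probes. The study asks what MARVELD1 does to the gene expression profile of these cells. One group received empty pcDNA3.1 and the other pcDNA3.1-MARVELD1, both were kept under G418 to obtain stable lines, and each was read on 1 single-colour Agilent whole-genome array. How many clones or cultures stand behind each RNA is not given in the sources used here. There was thus no replicate and no test, and 2-fold is used below only as a limit of size.

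Integrins are surface receptors of an alpha and a beta chain that connect the matrix outside a cell to actin or keratin filaments inside it. Beta-1 is the common chain of fibroblast receptors for fibronectin, collagen and laminin, beta-3 and beta-5 join alpha-v to bind vitronectin and related ligands, and beta-6 and beta-8 join alpha-v to free active TGF-beta from its latent complex. Beta-4 joins alpha-6 in the hemidesmosomes of epithelia, and beta-2 and beta-7 are best known from leukocytes.

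The probe sequences fix which stretch of a message each value reads, and those on which the results turn are printed 5′ to 3′ from the deposited files. All probes have 60 bases. Positions are given as in the files (mouse build mm9), and since neither gene models nor transcripts of that build were used, the exon, the untranslated region and the position on the transcript are not stated. Distances are genomic. Itgb1 has 3 probes. The upstream one is shown whole and the others by their first 30 bases. The file describes the second as integrin beta1D, a splice form known from striated muscle, and places its ends at chr8:131250931-131255949, 5019 bases apart, so its alignment crosses a gap; capitals mark the stop triplet of reading frame 1 at base 25. The third, at the 3-prime end, was printed 10 times per array.
Itgb1 A_52_P351816: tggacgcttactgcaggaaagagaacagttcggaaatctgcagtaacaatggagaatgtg
Itgb1 A_52_P69236: aactatggacgtaaagctggtctcTGAgtt
Itgb1 A_51_P286527: aaataaaattgacacagttgatgttcaagt

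Itgb4 also has 3 probes, and they disagree in direction. The 3-prime pair have 50 of 60 bases in common and so read the same stretch. The other lies 13600 bases upstream and was designed on a cDNA clone from neonate cerebellum. First 30 bases are printed, with those found in both overlapping probes in capitals.
Itgb4 A_52_P143287: gtccaggaacCATAAAGTGGGTAGAGGTGA
Itgb4 A_51_P408382: CATAAAGTGGGTAGAGGTGATACAAGGTCT
Itgb4 A_52_P459521: tggacagatatctactgaaaccatccttgt

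Of the remaining probes, those of Itgb5 and Itgb7 are the only reading of their gene, that of Itgb8 is the middle of 3, and the dimmer Itgb3 probe has a TG repeat of 12 bases (capitals, within its bases 28 to 57). The Itgb6 probe, shown whole, has ends 4616 bases apart in the genome and gave no signal above background. In a search of both strands for shared runs of 15 bases or more, 5 of the 17 probes matched a probe of another gene, over at most 16 bases.
Itgb3 A_51_P237893: aggacaattTGTGTGTGTGTGtatgggtgg
Itgb5 A_51_P327796: gccagacaagaaggtatccggaagagtctg
Itgb6 A_51_P161054: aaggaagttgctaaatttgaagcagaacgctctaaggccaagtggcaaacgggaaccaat
Itgb7 A_51_P359603: atttttcagagtgaccttcagagggcagca
Itgb8 A_51_P479519: ttccatttatttagaggaatgaccctaaca

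Values are background-subtracted spot intensities in arbitrary units. Differences are log2 values of the array labelled MARVELD1 minus the empty vector array, after each array was scaled to its 75th percentile. Marveld1 did not read higher under the MARVELD1 label: its probes differed by -0.34 and -0.42. Whether they read the plasmid's insert is not known, so every direction below rests on the label. The median difference of all probes with signal on both arrays was 0.15. The only error available is that of the spots: probes printed 10 times imply an SD of 0.17 for the difference of single spots brighter than 1000, of 0.40 between 100 and 1000, and of 0.67 under 100. All 8 fibroblast markers (Col1a1, Col1a2, Col3a1, Vim, Pdgfra, Pdgfrb, Thy1 and S100a4) were detected, with a median difference of -0.56 by the brightest probe of each. By that probe Pdgfrb (-2.10) and Col3a1 (-1.56) were past 2-fold lower. In all, 6 of the 8 were below 0, and Vim (0.21) and S100a4 (0.25) were above it. Dimmer probes gave -1.60 and -0.33 for Col1a1, -1.61 for Thy1, -0.10 for Col3a1 and 0.03 for Pdgfra.

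The beta subunits read in both directions. Of the 17 probes, 15 were detected, that is well above background, on both arrays and 2 on neither. Of these 15, 4 read 2-fold or more higher under the MARVELD1 label and 3 read 2-fold or more lower. The 3 include the overlapping Itgb4 pair. Over all 29537 probes detected on at least 1 array, the shares were 6.13% higher and 4.70% lower. They include probes detected on 1 array only, counted by their bounds. With detection required on both arrays, calls over all probes numbered 1235 higher and 1042 lower, against 1812 and 1389. By the brightest probe of each gene, Itgb7 and Itgb8 were past 2-fold higher (5.54% of 16545 genes), Itgb4 was past 2-fold lower (3.55% of genes), and 5 genes lay within 2-fold. Counts and medians of gene lists below use the brightest probe too, and these shares of all genes stand beside those counts. The median of the 8 genes was 0.04 and that of all genes 0.19. The share of higher calls depends on the scaling. It was 1812 probes higher against 1389 lower here, and 1404 against 1717 with arrays scaled to their medians. Levels cannot be compared between probes on an array, so the 8 genes are not ranked by expression, and with 2 arrays no gene can be named for a pattern like theirs.

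**Figure D1:**
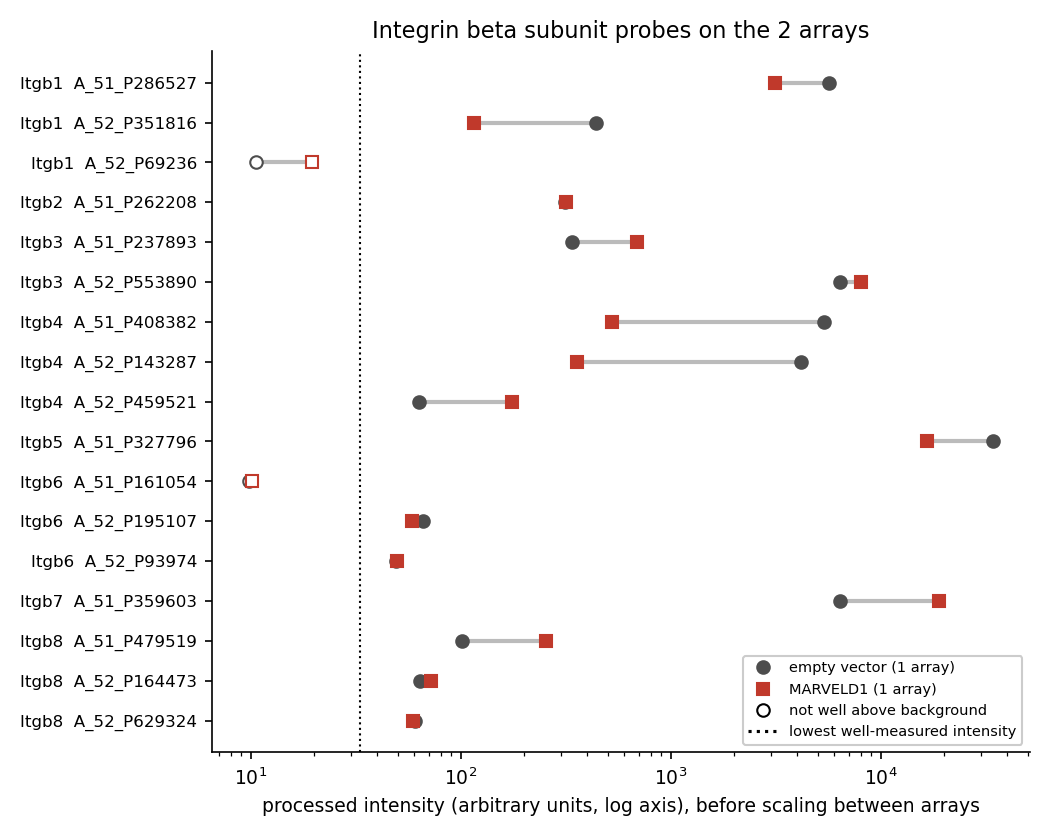
Processed intensity (log axis, arbitrary units) of the 17 integrin beta probes, with circles for the empty vector array, squares for the array labelled MARVELD1, open symbols for probes not well above background and a dotted line at the lowest well-measured intensity of the empty vector array (33.0). The 3-prime Itgb4 pair show the longest shifts, to the left, and Itgb7 shifts to the right from 6369.7 to 18811.9.

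Itgb1, the beta chain of the main fibronectin and collagen receptors, read lower under the MARVELD1 label by both probes that detected it. The 3-prime probe (A_51_P286527, chr8:131256492-131256551) had 10 spots between 5271.9 and 6215.7 (median 5658.4) with the empty vector and between 2842.2 and 3361.4 (median 3164.3) under the MARVELD1 label. The ranges of the spots do not overlap. The difference was -0.73, or 1.66-fold lower, with a standard error of 0.031 that reflects the spots of 1 array pair and not the spread between cultures. Against the median of all probes it was -0.88. In RNA from whole cultures, fewer cells with a message and less of it per cell cannot be told apart.

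The upstream Itgb1 probe (A_52_P351816, chr8:131246349-131246408) differed by more, at 437.3 with the empty vector and 114.9 under the MARVELD1 label. That is a difference of -1.80, or 3.48-fold lower, on single spots with an SD of 0.40. It lies 10083 bases upstream of the 3-prime probe, and its difference was 1.07 log2 units larger in size. Over 4627 genes with detected probes at least 500 bases apart, the 5-prime minus the 3-prime difference had a median of -0.28 and quartiles of -0.69 and 0.14. Itgb1, at -1.07, was among the lowest 11.4% of them. For the most 5-prime minus the most 3-prime detected probe, Itgb3 gave 0.68, Itgb4 4.81, Itgb6 0.20 and Itgb8 0.21. The Itgb6 and Itgb8 values are inside the spot SD of 0.67.

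For the beta1D form of Itgb1 (A_52_P69236) neither array gave a signal well above background. It read 10.6 with the empty vector and 19.6 under the MARVELD1 label, below the lowest well-measured intensities of 33.0 and 33.8, and no fold is given for this muscle form.

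**Figure D2:**
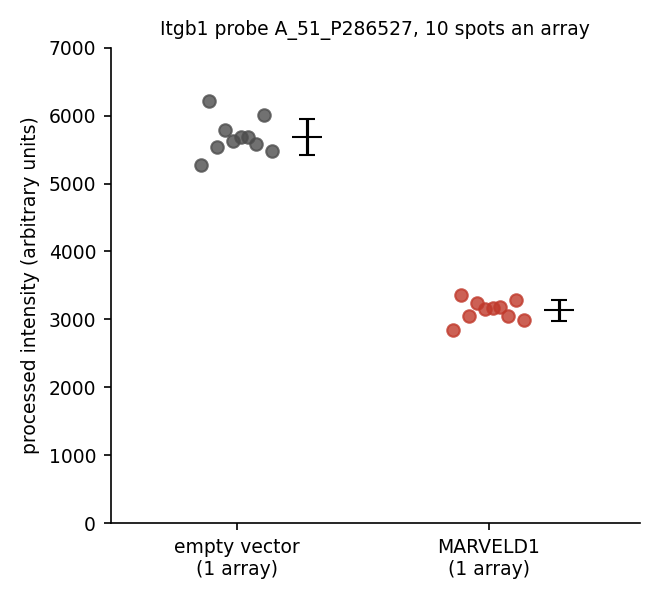
Processed intensity (arbitrary units) of the 10 spots of the Itgb1 probe A_51_P286527 on each array, with the mean and SD over spots beside them. The lowest spot of the empty vector array, 5271.9, lies above the highest spot under the MARVELD1 label, 3361.4.

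Itgb5 and Itgb3, the vitronectin-binding partners of alpha-v, read in opposite directions. Itgb5 (A_51_P327796, chr16:33949123-33949182) read 33975.3 with the empty vector and 16605.2 under the MARVELD1 label. Its difference was -0.91, or 1.87-fold lower, beside a spot SD of 0.17. The scaling decides on which side of 2-fold it falls: it was -1.01 with arrays scaled to their medians, -1.16 with quantile normalization, -1.22 after loess, -1.01 with normexp background correction and quantile normalization together, and -1.02 in the authors' deposited table. Its direction was the same in all of these.

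Itgb3, which also forms the platelet fibrinogen receptor, read higher by both probes, with sizes 0.68 apart. The brighter probe (A_52_P553890, chr11:104531672-104531731) read 6392.8 with the empty vector and 8058.8 under the MARVELD1 label, a difference of 0.46 or 1.38-fold. It was 0.35 with arrays scaled to their medians, 0.24 with quantile normalization and 0.19 with normexp and quantile normalization together, near the spot SD of 0.17. The probe with the TG repeat (A_51_P237893, chr11:104528490-104528560), 3111 bases upstream, read 339.2 and 685.0 in the same order, a difference of 1.14 or 2.21-fold with an SD of 0.40. The file lists it over 71 genomic bases for its 60, so its alignment has a gap. Of the 4 platelet and megakaryocyte markers, 0 passed 2-fold in either direction, with a median of -0.26. Pf4, at 47.3 and 41.1, was detected with the empty vector only.

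The TGF-beta activating subunits gave dim signals. Itgb6, mainly known from epithelia, was detected by 2 probes. One read 65.7 with the empty vector and 58.1 under the MARVELD1 label, a difference of -0.05, and the other 48.9 and 49.6, a difference of 0.15. Both are inside the spot SD of 0.67. The remaining probe (A_51_P161054) read 9.8 and 10.1 and was not well above background.

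Itgb8 was past 2-fold by 1 of its 3 probes. The middle probe (A_51_P479519, chr12:120426719-120426778) read 101.5 with the empty vector and 254.8 under the MARVELD1 label, a difference of 1.46 or 2.74-fold higher with an SD of 0.40. The upstream probe, 13868 bases away, read 63.7 and 72.3, a difference of 0.31. The downstream probe, 25629 bases away, read 60.2 and 59.2, a difference of 0.10. These outer differences are inside the SD of 0.67, and all 3 probes are listed under cDNA clones. If the most 3-prime probe stands for the gene, Itgb8 is no longer past 2-fold.

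Itgb4, whose long cytoplasmic tail binds plectin and so links hemidesmosomes to keratin, had the largest difference among the beta subunits and the least agreement between probes. A_51_P408382 (chr11:115869557-115869616) read 5327.2 with the empty vector and 525.4 under the MARVELD1 label, a difference of -3.21 or 9.28-fold lower. A_52_P143287 (chr11:115869547-115869606) read 4173.7 and 356.7, a difference of -3.42 or 10.7-fold lower. With an SD of 0.27 at these intensities both lie far from 0, and as they share 50 bases they are 1 reading of 1 stretch. The upstream probe A_52_P459521 (chr11:115855887-115855946) went from 63.4 up to 174.8 instead. Its difference was 1.59, or 3.01-fold higher, with an SD of 0.60, and 0.97 with normexp and quantile normalization together.

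A gap as wide as that of Itgb4 was rare on these arrays. Among 5490 genes with at least 2 probes detected on both arrays, the difference varied between probes by a median of 0.49. For Itgb4 it varied by 5.01, a value reached by 3 genes including Itgb4. Probes past 2-fold in opposite directions occurred in 13 of the 5490 genes (0.24%). The range was 1.07 for Itgb1, 0.68 for Itgb3, 0.20 for Itgb6 and 1.35 for Itgb8, and 10.11% of genes had a range at least as wide as that of Itgb8. Galk1, the galactokinase gene, overlaps the span of Itgb4 in the RefSeq table (GRCm38.p6), with a probe on the opposite strand 507 bases from the Itgb4 pair. It read 9916.3 and 10862.2, a difference of 0.26.

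**Figure D3:**
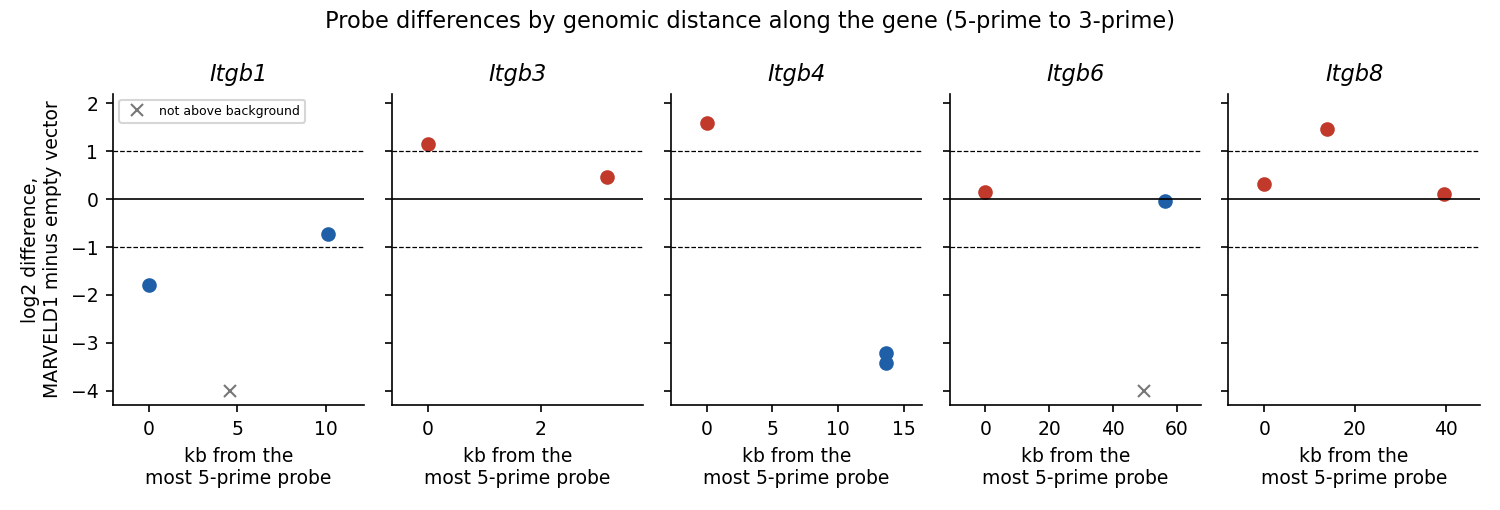
Log2 difference of each probe against its genomic distance in kb from the most 5-prime probe of its gene, for the 5 genes with more than 1 probe; dashed lines mark 2-fold, and crosses, placed at the bottom without a value, mark probes not above background. Itgb4 goes from 1.59 upstream to -3.21 and -3.42 at its 3-prime end, and in Itgb8 the middle probe alone is past 2-fold, at 1.46.

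Beside Itgb4, the 6 epithelial markers were mixed, with 4 detected, 2 past 2-fold higher and 1 lower. Cdh1 and Epcam, which define epithelia, were not well above background on either array. Krt14, a keratin of basal epithelia, read 3226.6 with the empty vector and 212.4 under the MARVELD1 label, 13.9-fold lower. Krt5, its usual partner, was 2.02-fold higher (328.3 and 607.7). Krt18 was at least 2.61-fold higher at low intensity (19.4 and 78.7), where the spot SD is 0.67. Krt8 differed by 0.08 by its brighter probe and was at least 2.77-fold higher by the other (49.8 and 126.4). Neither bound allows for spot error. The part of these markers in the Itgb4 values was not tested.

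Itgb7, which pairs with alpha-4 and alpha-E on gut-homing lymphocytes, had the largest upward difference by the brightest probe of each beta gene. Its only probe (A_51_P359603, chr15:102046450-102046509) read 6369.7 with the empty vector and 18811.9 under the MARVELD1 label. The difference was 1.69, or 3.23-fold higher, with a spot SD of 0.17, and lay between 1.38 and 1.69 in the settings tried. Zfp740, the neighbouring gene, has a probe on the opposite strand 448 bases away that read 7702.9 and 8199.8, a difference of 0.22. Itgb2, the beta chain shared by leukocyte integrins such as LFA-1, read 314.2 and 316.3 (A_51_P262208, chr10:77027978-77028037), a difference of 0.14 inside the SD of 0.40.

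All 9 leukocyte markers, among them Ptprc, Cd3e, Adgre1 and Csf1r, were detected on at least 1 array. By the brightest probe 0 of 9 passed 2-fold in either direction, with a median of 0.23. Cd3d was detected with the empty vector only (47.0 and 33.2), and its bound could not reach 2-fold. A dimmer probe of Csf1r was at least 2.51-fold higher. The 9 markers read between 41.1 and 742.8 with the empty vector and between 33.2 and 1019.6 under the MARVELD1 label. Ptprc, the pan-leukocyte marker CD45, was near the lowest well-measured intensity, at 41.1 and 52.2. Of the 4 endothelial markers, 0 passed 2-fold by the brightest probe, with a median of 0.25. All were detected on at least 1 array, Pecam1 under the MARVELD1 label only (31.9 and 43.0). A dimmer probe of Cdh5, the endothelial cadherin, read 190.0 and 52.2, 3.33-fold lower.

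**Figure D4:**
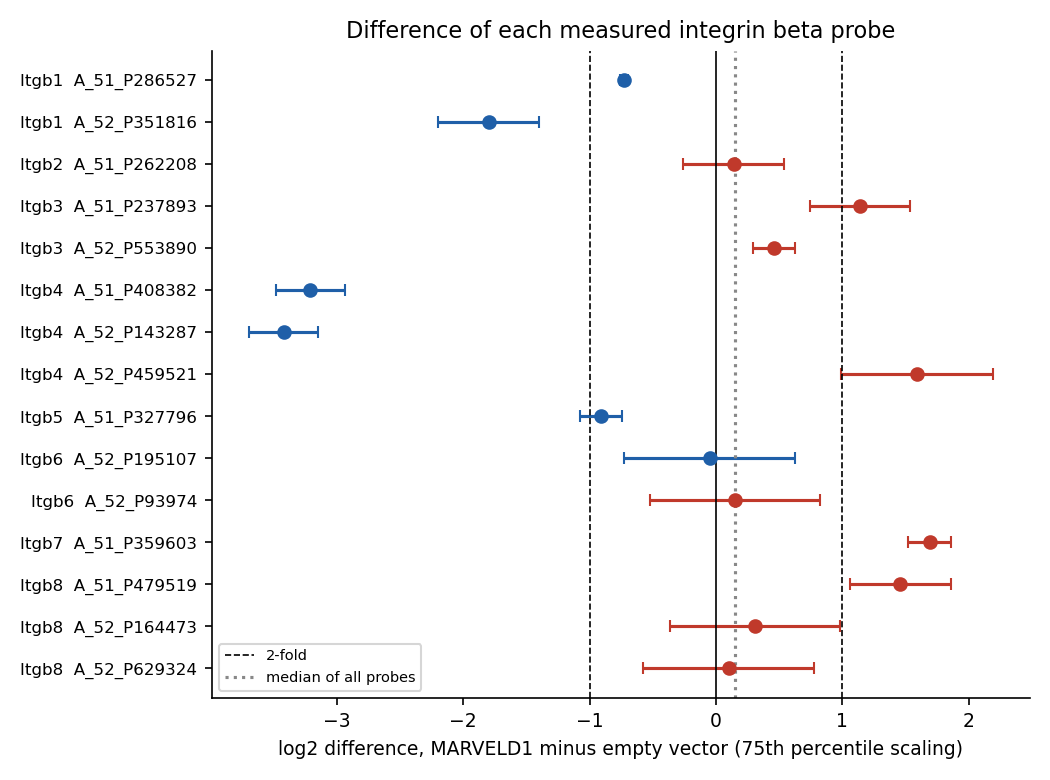
Log2 difference of the 15 detected integrin beta probes, with the standard error over 10 spots for Itgb1 A_51_P286527 and, for the single spots, the technical SD at their intensity; dashed lines mark 2-fold and a dotted line the median of all probes (0.15). Itgb7 (1.69) and the 3-prime Itgb4 pair (-3.21 and -3.42) have bars far from 0, and the bars of Itgb2, Itgb6 and the outer Itgb8 probes reach 0.

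The alpha chains that pair with the beta subunits had a median of 0.39, which was 0.20 above that of all genes here and -0.04 relative to it with normexp and quantile normalization together. Of 18 genes, 17 were on the array and 15 detected, 3 of them past 2-fold higher and 0 lower. Itga7, a laminin receptor chain of muscle that pairs with beta-1, read 79.8 and 383.2 by its brightest probe, 5.25-fold higher, while its other probe gave -0.19. Itga3, a laminin-binding partner of beta-1, was 2.23-fold higher (2255.2 and 4607.3), with other probes at 1.38 and 0.20. Itga4, a partner of both beta-1 and beta-7, was at least 2.23-fold higher, from a reading not well above background (43.6). The lowest were Itga1 and Itga5, collagen and fibronectin partners of beta-1, at -0.33 each. Itga1 read 99.5 and 72.6, which puts it inside the spot SD of 0.67. Itga5 read 4022.1 and 2939.0, beside a spot SD of 0.17. Itgav, the partner of beta-3, beta-5, beta-6 and beta-8, differed by -0.21 by its brightest probe (others 0.11 and at least 1.65-fold higher), and Itga6, the partner of beta-4, by 0.20 (others -0.24 and -0.59). Itgae, the second partner of beta-7, differed by 0.56 at low intensity (70.8 and 95.7), and its other probe went the other way, at -0.33.

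Of 28 ligand genes, 25 were detected, with a median of -0.17, or -0.36 relative to all genes. Of these 25, 2 were past 2-fold higher, beside 5.54% of all genes, and 4 lower, beside 3.55%. The laminin chain Lama4 was 3.07-fold lower (its 3 other probes lower too), the collagen Col3a1 2.94-fold (other probe -0.10), the microfibril gene Fbn1 2.49-fold (other probe -2.13) and fibronectin, Fn1, 2.18-fold (other probe detected on both arrays -2.47). The matricellular gene Postn was 2.76-fold higher (92.6 and 234.2, other probe -0.20) and the laminin chain Lama5 2.16-fold (241.2 and 477.4, spot SD 0.40). Both are dim, whereas the 4 lower genes all read above 1000 with the empty vector. Fn1, the ligand of the beta-1 receptor with alpha-5, was thus lower together with Itgb1.

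Of 26 genes for talins, kindlins and adhesion adaptors, 25 were detected, 0 past 2-fold higher and 1 lower. Their median was 0.39, which relative to all genes was 0.20 here and 0.00 after loess. The 1 gene was Actn1, an actinin that joins adhesions to actin, at 2.36-fold lower. Tln1, the talin that activates beta tails, differed by -0.83 and -0.77 by its probes. The highest was Pxn, the scaffold paxillin, at 0.93 (other probes -0.04 and -1.27). Fermt2, the kindlin of fibroblasts, differed by 0.62 and -0.35.

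Of 20 genes for proteins that bind or inhibit beta subunits, 19 were detected, 0 past 2-fold higher and 1 lower. Their median was 0.20, or 0.01 relative to all genes. The 1 gene was Itgbl1, a secreted protein with beta-like repeats, which read 7777.8 and 2591.6, 2.75-fold lower. Itgb3bp, first described as binding beta-3, was next at -0.48 (other probe -0.14). The highest were Eif6, which binds beta-4, at 0.84 (other probe -0.65) and Sharpin, an inhibitor of integrin activation, at 0.67. Itgb1bp1, an inhibitor of beta-1, differed by -0.15 and 0.12.

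Of 10 hemidesmosome genes, 9 were detected, 1 past 2-fold higher (Krt5) and 2 lower. Their median was 0.20, or 0.01 relative to all genes. Besides Krt14, the lower one was Dst, the plakin that anchors keratin beside beta-4, at 3.32-fold (other probes -1.85 and -0.01). Plec, the plectin gene, differed by -0.42 and -0.59. Of 11 genes for TGF-beta and its activation, 9 were detected and 0 passed 2-fold in either direction. Their median was -0.27, or -0.46 relative to all genes. That median is the bound of Tgfb2, which read 44.7 with the empty vector and 25.9, not well above background, under the MARVELD1 label. Its bound, set at the lowest well-measured intensity of 33.8, could not reach 2-fold. The latent TGF-beta binding proteins Ltbp3 and Ltbp4 were highest, at 0.92 (other probe 0.10) and 0.35, and the ligand Tgfb3 and the receptor Tgfbr1 lowest, at -0.69 each.

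**Figure D5:**
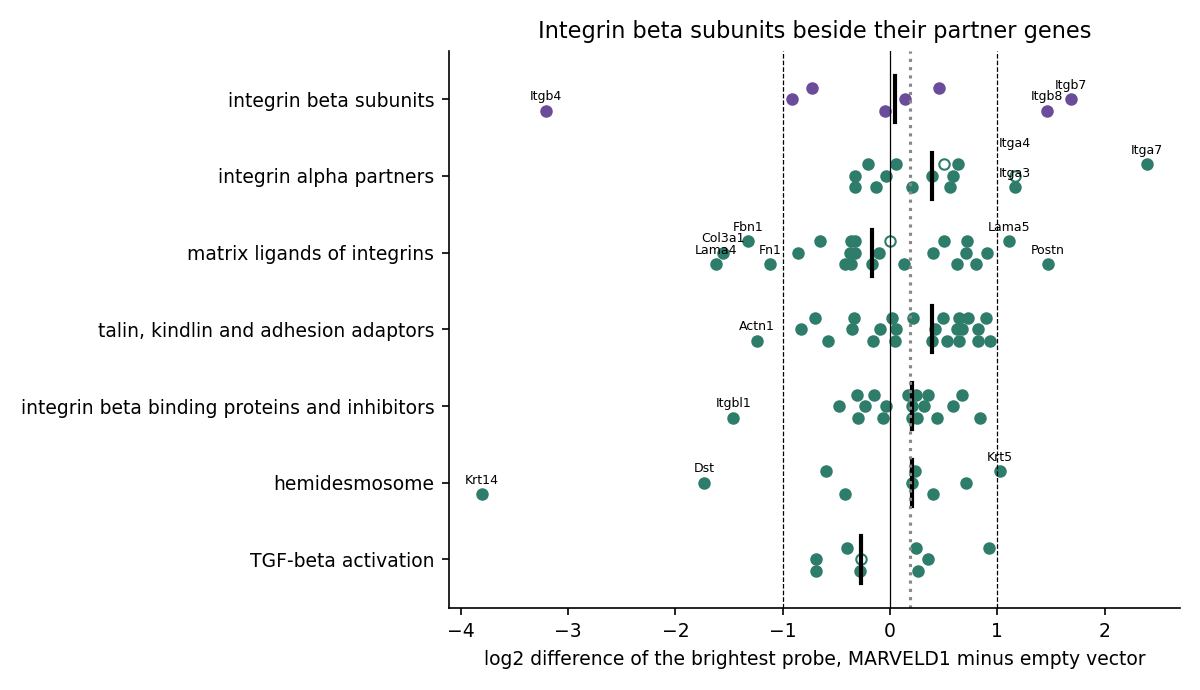
Log2 difference of the brightest probe of each detected gene for the 8 beta subunits and 6 lists of related genes; black bars are medians, the dotted line is the median of all genes (0.19), dashed lines mark 2-fold and open circles are bounds. Genes past 2-fold are named, and the beta subunits spread from -3.21 (Itgb4) to 1.69 (Itgb7), with a median of 0.04.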

How the data were processed

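The deposited scanner files give the intensity of each spot, background-subtracted and detrended within an array by Agilent Feature Extraction 9.5.3.1, per the file headers, without scaling between arrays. The authors' own normalized intensity table served as an alternative. Detection and outlier marks were taken as deposited, and 0 spots of the beta subunits were outliers. Here log2 intensity of non-control spots was set relative to the 75th percentile of the array, and spots of one probe were averaged (R 4.3.3, limma 3.58.1 for alternatives, Python 3.11.15). A probe counted as detected when at least 50% of its spots were well above background. A probe detected on 1 array gives "at least N-fold", taken against the higher of its dim reading and the lowest well-measured value of that array. The brightest probe stood for a gene. Names came from a RefSeq table (GRCm38.p6): 25001 probes matched by accession, 5960 by symbol and 1767 by older name, and 8446 were unnamed. Spot error came from 170 probes printed 10 times. Named genes are the members and Marveld1, and from each partner list the 2 highest, the 2 lowest and those past 2-fold; other list genes were picked after their values were seen. Some genes that this rule selects are not reported here. Members and lists were chosen with earlier results of these data known. Calculations were tested on simulated data. Precision is limited by having 1 array per group.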

Additional observations from a re-analysis of the deposited data

How the results depend on the processing

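No paired analysis was possible because each group has 1 array, and for the same reason none could be left out. Of 150 values for beta genes, counts and list medians under other settings, 101 stayed within a limit and 49 moved further. The limit was the spot SD for beta genes and 1.5 times for counts. For list medians it was narrower than a spot SD. There it was the error of a median implied by the spot SD over all intensities (0.40) and the number of genes. Of 105 values for single probes, 11 moved by more than the spot SD. Keeping all spots could move none of them, since 0 spots of the beta subunits were outliers. Taking the median over spots could move only the Itgb1 probe printed 10 times. Among values past 2-fold, 0 changed sign. For the gene value of Itgb4 each scaling kept the same probe, which is also its most 3-prime one. Its upstream probe (1.59) entered that value only in the mean of probes. Itgb1 was -0.94 after loess and Itgb3 0.23. With quantile normalization Itgb3 was 0.24, Itgb5 -1.16 and Itgb7 1.45, and loess gave -1.22 and 1.43 for Itgb5 and Itgb7. Normexp and quantile normalization together (both choices changed, called normexp-quantile below) gave 0.19 for Itgb3, 1.38 for Itgb7 and 1.0 for Itgb8. As means of their probes Itgb1 was -1.27, Itgb3 0.80, Itgb4 -1.68 and Itgb8 0.62, and by its most 3-prime probe Itgb8 was 0.10. Beta genes past 2-fold higher numbered 1 by the mean of probes, by the 3-prime probe or at 3-fold. Those lower numbered 2 by the mean of probes, with each other scaling, with normexp-quantile or in the authors' table, and 3 at 1.5-fold. Over all probes, higher and lower calls numbered 586 and 821 with normexp-quantile, 893 and 1335 in the authors' table, 1384 and 1693 with quantile normalization, 1302 and 1789 after loess, 5592 and 3336 at 1.5-fold, and 460 and 503 at 3-fold. The median of all genes, 0.19, was 0.04 after loess and 0.08 with arrays scaled to their medians. Relative to it, the median of alpha chains was -0.04 with normexp-quantile, 0.01 in the authors' table or with detection required on both arrays, -0.03 by the mean of probes and 0.00 by the 3-prime probe. That of ligands was -0.47 after loess. That of adaptors was 0.00 after loess, 0.04 with normexp-quantile and -0.09 by the mean of probes. That of beta-binding proteins was -0.14 after loess and -0.22 by the mean of probes. That of hemidesmosome genes was -0.16 with normexp-quantile, -0.36 by the mean of probes and -0.25 without the filter on dim probes. That of TGF-beta genes was -0.21 in the authors' table or with detection on both arrays, and -0.26 by the mean of probes. The cause of these shifts was not tested. Low signal over background limits Itgb6, Itgb8 and the upstream Itgb4 probe.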
